A study of Zea mays with 6 samples.

Results

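The transcripts described here came from 9 maize genes for heat shock proteins and molecular chaperones, among 39219 genes on the array. The genes were picked by their identifiers: HSP90-1 (GRMZM2G024668), HSP90-2 (GRMZM2G012631), Hsp70 (GRMZM2G310431), hsp70-5 (GRMZM5G802801), hsp101 (GRMZM2G360681), HSP60-1 (GRMZM2G111477), hsp22 (GRMZM2G007729), hsp18c (GRMZM2G034157) and hsp18f (GRMZM2G083810). Together they had 13 transcripts and 31 probes, out of 59756 transcripts and 139000 probes. Roots of Zea mays PR33T56 were hybridised to 6 single-colour NimbleGen arrays, 3 labelled Fe-deficient and 3 labelled Fe-sufficient, and each array held RNA pooled from 6 plants. Plants of both groups were grown in nutrient solution free of Fe until 12 d of age and were harvested at 19 d. For the last 7 d the Fe-deficient plants stayed in that solution, whereas the Fe-sufficient plants received 100 µM Fe-EDTA, so that the Fe-sufficient roots were resupplied after a period without Fe. Whether roots respond to Fe supply with a change in chaperone transcripts was the question addressed by the comparison.

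Molecular chaperones help other proteins to fold, keep unfolded chains from clumping and recover those that have clumped. Small heat shock proteins bind unfolding proteins without using ATP, HSP70 and HSP90 proteins refold and mature client proteins in cycles of ATP use, HSP60 chaperonins enclose proteins in a barrel inside mitochondria, and HSP101 pulls proteins out of aggregates. Many of these genes are switched on by heat through heat shock transcription factors, while some copies are transcribed in unstressed tissue as well. In bulk roots, fewer cells of a type and less RNA per cell cannot be told apart.

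Levels are given as log2 of the deposited probe intensity, summarised per transcript, and levels of different genes were not compared, since probes differ in brightness for reasons other than transcript abundance. A probe counted as above background when it was brighter than the 95th percentile of the 1663 random-sequence control probes of its array, and between 58.4% and 66.5% of probes met this. All 13 transcripts had at least 1 such probe on every array. Of 6 root markers 2 had a match, and both, rth3 of root hairs and rtcs1 of root formation, were above background on all 6 arrays. Of 8 leaf photosynthesis genes 4 had a match, of which ssu1 of Rubisco and psbs1 were above background on 2 of 6 each, while pep1 and me3 were above it on all. The brightest transcript of TOM1 (GRMZM2G063306), which exports the phytosiderophore that maize releases to capture Fe, did not separate the labels. This check used no other transcript of TOM1 and no other gene of the Fe response. The log2 level of the transcript was 12.61, 11.14 and 12.59 under the label Fe-deficient and 8.49, 13.51 and 12.52 under the label Fe-sufficient (adjusted p = 0.872). The array labelled Fe-sufficient 1 was thus lowest for this transcript. Fe-sufficient 2 lay above all arrays labelled Fe-deficient, and Fe-sufficient 3 lay within their range. Each array was left out in turn below, which does not mark its label as wrong. Leaving out Fe-sufficient 1 gave calls for 1.76% of all transcripts and for 0 members. Every direction given here rests on the labels as deposited, which the levels of this 1 TOM1 transcript did not bear out on all arrays. Whether a label is wrong was not tested. The groups lay at different positions of 1 slide, so that position and Fe supply cannot be told apart.

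None of the 9 genes passed the test between the groups. A call required a limma adjusted p no higher than 0.05 together with a change of 1.5-fold or more. In simulated arrays these limits recovered 0% of 1.5-fold and 0% of 2-fold changes, so the lack of a call does not exclude changes of that size. Probe noise entered these arrays on top of a spread that already held it, so the shares may be too low. Of the 13 transcripts 0 were called, against 0.0853% of all transcripts, and their adjusted p ran from 0.471 to 0.992. Without adjustment, 3 of the 13 had p no higher than 0.05 and were lower under the label Fe-deficient, the 2 of HSP90-1 and that of Hsp70, whereas 4.93% of all transcripts passed this limit as lower. By the brightest transcript of each gene, 7 genes had a difference below 0 and 2 above 0, with a median log2 difference of -0.15. Differences are given as the mean under the label Fe-deficient minus that under the label Fe-sufficient. Over all genes of the array the median was 0.01 and 48.1% of the differences lay below 0. For 3 of the 9 genes, HSP90-1, Hsp70 and hsp18f, the groups lay apart without overlap, all lower in the arrays labelled Fe-deficient. Over the array the brightest transcript of 17.3% of the genes had no overlap, and 7.52% of all genes were without overlap and lower. The 95% intervals of 2 genes, HSP90-2 and hsp18f, lay wholly within a 1.5-fold change in either direction, whereas those of the other 7 reached beyond it. The interval and the lower side of hsp18f rest on 3 probes, of which 2 were above background on no array. Its remaining probe had a log2 difference of 0.40.

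**Figure D1:**
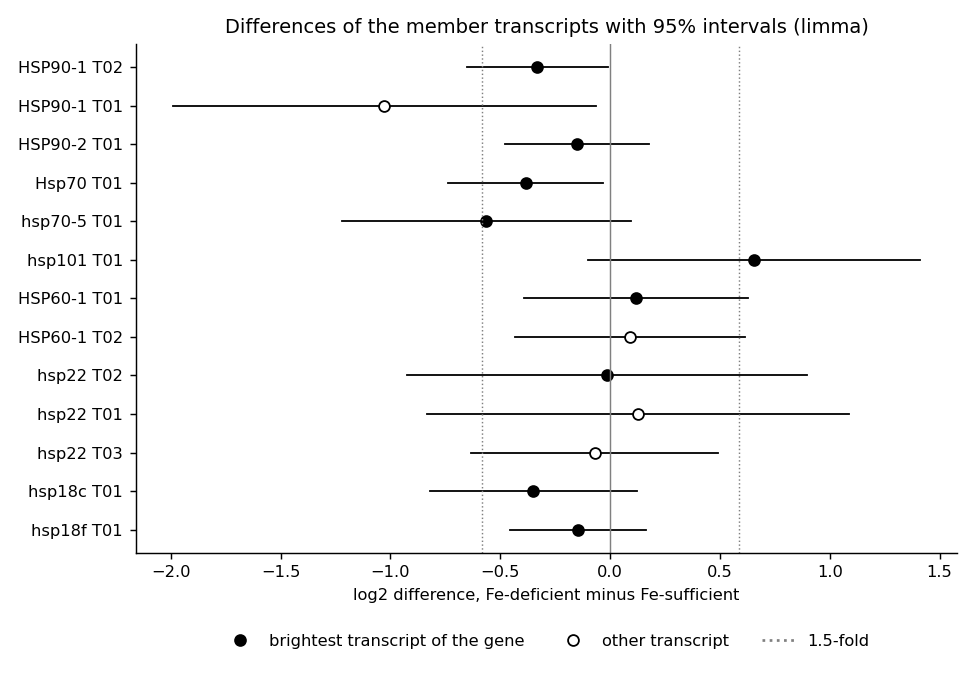
Log2 difference (Fe-deficient minus Fe-sufficient, x axis) of each of the 13 member transcripts (y axis), with bars for the 95% interval of limma, filled points for the brightest transcript of a gene and dotted lines at a 1.5-fold change. Differences ran from -1.03 for the dimmer HSP90-1 transcript to 0.65 for hsp101, and none was called.

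HSP90 proteins mature signalling proteins such as kinases and receptors. The brightest transcript of HSP90-1 stood at log2 levels of 14.40, 14.31 and 14.55 under the label Fe-deficient and at 14.82, 14.69 and 14.74 under the label Fe-sufficient. All 3 Fe-deficient values were thus below all 3 Fe-sufficient values. The means were 14.42 ± 0.12 and 14.75 ± 0.07 (SD, n = 3 in each group), a 1.26-fold lower level that was not called (adjusted p = 0.479). Its arrays scattered little: 92.4% of all transcripts had a larger spread within groups.

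The second HSP90-1 transcript was dimmer and scattered more, at 7.58, 7.60 and 8.34 against 9.67, 8.12 and 8.81. Its Fe-deficient and Fe-sufficient values overlapped, and the highest was that of the array Fe-sufficient 1. The log2 difference was -1.03 with a 95% interval from -1.99 to -0.06 (adjusted p = 0.474). Of its 2 probes, the one that starts at base 2491 was above background on no array. The other, at base 2473, had a log2 difference of -0.87 on its own. Without the array Fe-sufficient 1 the difference of the transcript was -0.63 (adjusted p = 0.382).

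HSP90-2 lay at 14.74, 14.60 and 14.87 against 14.97, 14.86 and 14.84. The groups overlapped by one array, and the fold change was 0.90 with a 95% interval from 0.718 to 1.13 (adjusted p = 0.69). The log2 difference of -0.15 was -0.078 without Fe-deficient 2 and -0.24 without Fe-deficient 3. All 3 of its probes and all 4 of HSP90-1 had lower means in the arrays labelled Fe-deficient.

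HSP70 proteins bind short exposed stretches of unfolded chains. Hsp70 was at log2 levels of 12.93, 13.07 and 13.32 under the label Fe-deficient, and at 13.49, 13.48 and 13.51 under the label Fe-sufficient. The Fe-sufficient arrays were nearly equal for this gene and all exceeded the Fe-deficient ones. The means of 13.11 ± 0.20 and 13.49 ± 0.01 (SD, n = 3 in each group) differed 1.31-fold, which was not called (adjusted p = 0.471). Without the array Fe-sufficient 1 the log2 difference was -0.39, close to -0.38 with all arrays, and again not called (adjusted p = 0.307).

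The other HSP70 gene, hsp70-5, stood at 9.87, 9.80 and 10.79 against 10.56, 10.77 and 10.82. Arrays Fe-deficient 1 and 2 were low, while Fe-deficient 3 was among the Fe-sufficient values. Its fold change was 0.676 with a 95% interval from 0.429 to 1.07 (adjusted p = 0.513). With single arrays left out its log2 difference of -0.56 ran from -0.39 without Fe-deficient 2 to -0.88 without Fe-deficient 3, without a call (adjusted p = 0.757 and 0.44).

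**Figure D2:**
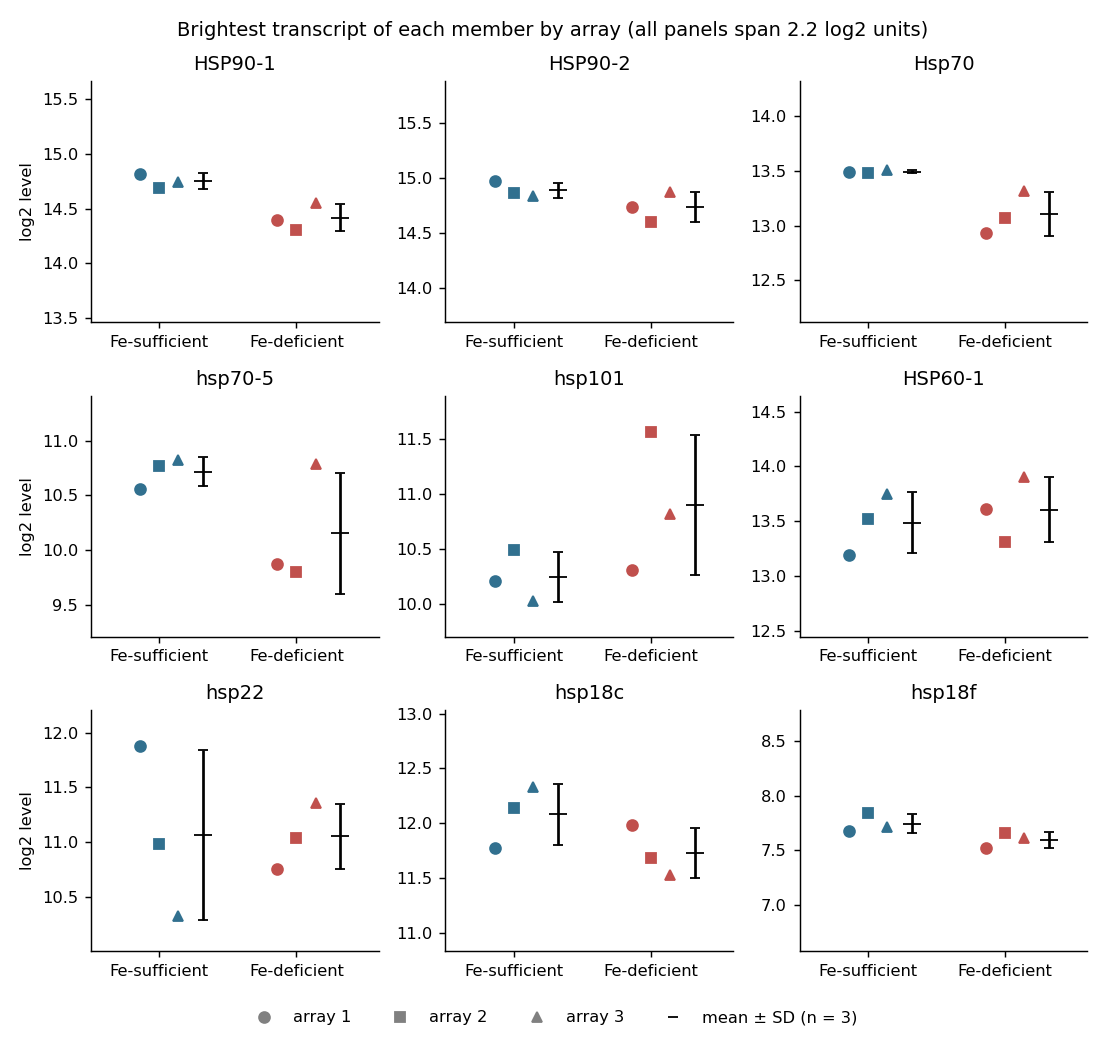
Log2 level (y axis, panels of equal span) of the brightest transcript of each of the 9 genes on the arrays labelled Fe-sufficient (blue) and Fe-deficient (red), with a marker shape per replicate number and the mean ± SD (n = 3) in black. Only for HSP90-1, Hsp70 and hsp18f do the groups not overlap, whereas hsp22 spreads from 10.33 to 11.88 within the Fe-sufficient group.

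hsp101, the disaggregase that maize needs to acquire tolerance of heat, had the largest positive difference of the 9 genes. Its levels were 10.31, 11.57 and 10.82 under the label Fe-deficient and 10.21, 10.49 and 10.03 under the label Fe-sufficient. Array Fe-deficient 2 was highest, and Fe-deficient 1 was within the Fe-sufficient values. The fold change was 1.57 with a 95% interval from 0.932 to 2.66 (adjusted p = 0.511). Both probes had the same direction, with log2 differences of 0.56 and 0.75. The log2 difference of 0.65 was 0.32 without Fe-deficient 2 (adjusted p = 0.748), 0.95 without Fe-deficient 1 (adjusted p = 0.597) and 0.25 with arrays weighted by their quality (adjusted p = 0.664).

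HSP60-1, also named CPN60I, encodes a chaperonin of mitochondria. Its brightest transcript was at 13.61, 13.31 and 13.90 against 13.19, 13.52 and 13.75, so the groups overlapped throughout. The fold change was 1.09 with a 95% interval from 0.762 to 1.55 (adjusted p = 0.856). Without Fe-sufficient 1 the log2 difference turned from 0.12 to -0.014, and without Fe-deficient 3 to -0.032. The 3 probes of this transcript start at bases 232, 236 and 240 and so measure nearly the same stretch. The second transcript, at 10.59, 10.42 and 11.20 against 10.57, 10.60 and 10.78, had a fold change of 1.06 (adjusted p = 0.898). The RefSeq gene of HSP60-1 also includes the array's gene model GRMZM2G458208, which is not among the 9 genes. That model had a log2 difference of -0.04 (adjusted p = 0.968).

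The small heat shock proteins were hsp22, hsp18c and hsp18f. The product of hsp22 works in mitochondria. The brightest of its 3 transcripts stood at 10.76, 11.04 and 11.36 under the label Fe-deficient and at 11.88, 10.98 and 10.33 under the label Fe-sufficient. Both the highest and the lowest value were from the Fe-sufficient group. The means were nearly equal, at 11.05 ± 0.30 and 11.07 ± 0.78 (SD, n = 3 in each group), and the 95% interval of the fold change ran from 0.528 to 1.86 (adjusted p = 0.992). The spread of this transcript within groups was large for the array, as only 7.54% of all transcripts had a larger one.

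The other hsp22 transcripts followed the same arrays. They were at 10.49, 10.86 and 11.04 against 11.55, 10.59 and 9.87, with a log2 difference of 0.13 (adjusted p = 0.924), and at 8.37, 8.48 and 8.36 against 8.92, 8.51 and 8.00, with a log2 difference of -0.07 (adjusted p = 0.928). Fe-sufficient 1 was the highest and Fe-sufficient 3 the lowest array for all 3 transcripts. Among the 7 hsp22 probes, 7 were brightest on Fe-sufficient 1 and 5 were dimmest on Fe-sufficient 3. These probes are not independent, since 3 of them start at bases 412, 412 and 414 of their transcripts and 2 at bases 963 and 964. For comparison, 14 of the 31 probes of all members, these 7 included, were brightest on that array. Without Fe-sufficient 1 the log2 difference of the brightest transcript turned from -0.01 to 0.39 (adjusted p = 0.489) and without Fe-sufficient 3 it was -0.38. The dimmest transcript turned from -0.07 to 0.22 without Fe-sufficient 1, and the remaining one turned from 0.13 to -0.27 without Fe-sufficient 3.

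**Figure D3:**
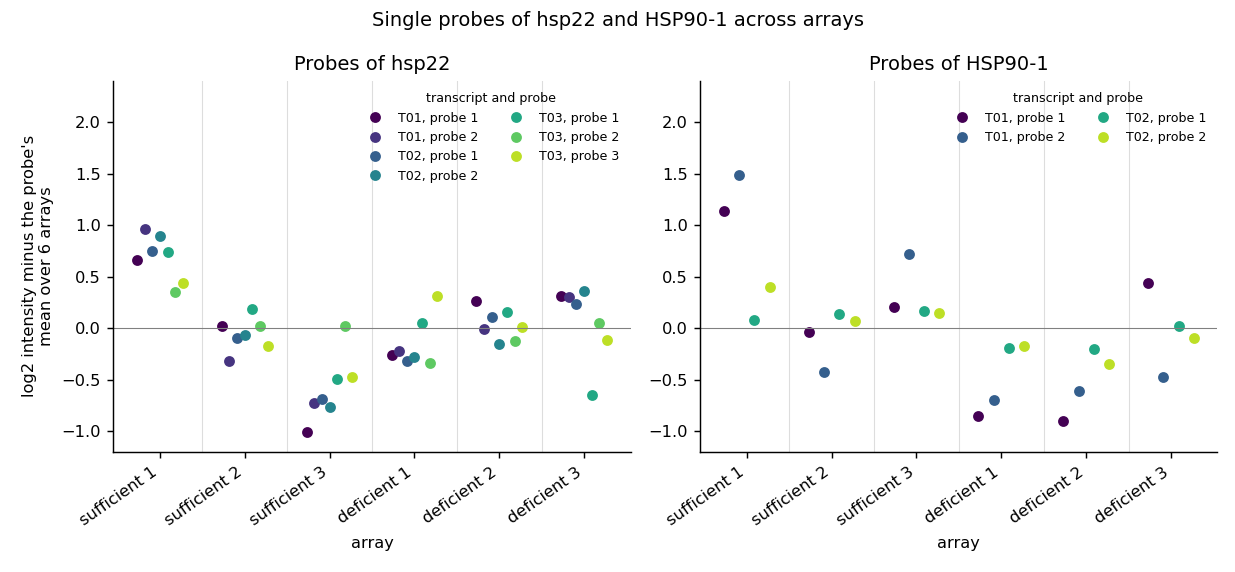
Log2 intensity of each probe minus its own mean over the 6 arrays (y axis), by array (x axis), for the 7 probes of hsp22 and the 4 probes of HSP90-1, with 1 colour per probe. All 7 hsp22 probes are highest on the array Fe-sufficient 1, and both probes of the dimmer HSP90-1 transcript (T01) vary more than those of the brighter one (T02).

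hsp18c was at 11.98, 11.68 and 11.53 against 11.77, 12.14 and 12.33. The groups overlapped, because Fe-deficient 1 exceeded Fe-sufficient 1. The fold change was 0.785 with a 95% interval from 0.567 to 1.09 (adjusted p = 0.551). Without Fe-sufficient 1 the log2 difference was -0.50 and again not called (adjusted p = 0.248). The difference of -0.35 with all arrays was -0.18 without Fe-sufficient 3, -0.23 without Fe-deficient 3 and -0.22 with the mean of probes. Of its 3 probes, the one at base 46 had the opposite direction, at 0.16.

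hsp18f was at 7.52, 7.66 and 7.61 against 7.68, 7.84 and 7.71. The groups did not overlap, but the gap was small and the fold change was 0.903 (adjusted p = 0.686). Of its 3 probes, 2 were above background on no array. The remaining probe, at base 747, was above background on all 6 arrays and had the opposite direction, with a log2 difference of 0.40 (adjusted p = 0.536 with bright probes alone).

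By size class, the 6 genes of the large families had a median log2 difference of -0.24 and the 3 small heat shock proteins of -0.15. When each gene was centred on its mean over the 6 arrays, the median of the large families was -0.22, -0.23 and 0.15 under the label Fe-deficient and 0.14, 0.07 and 0.18 under the label Fe-sufficient. Array Fe-deficient 3 thus lay among the Fe-sufficient arrays. The small heat shock proteins had medians of -0.15, -0.02 and -0.06 against 0.01, 0.17 and 0.04, which did not overlap. With 3 genes the median is the value of a single gene on each array, and with bright probes alone it differed by -0.01 between the groups, in place of -0.15.

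**Figure D4:**
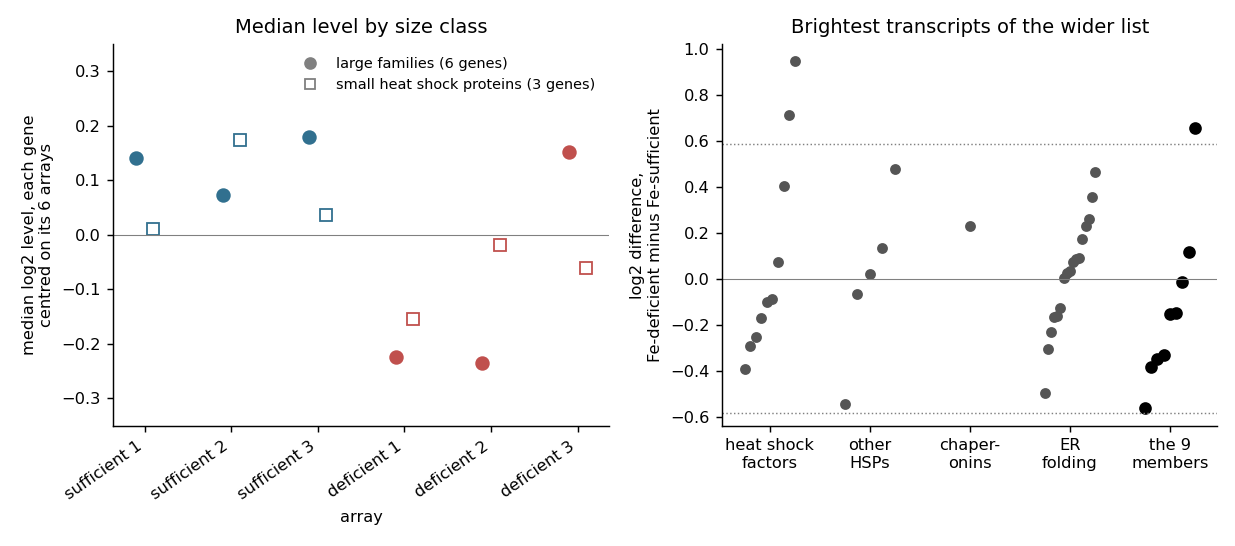
Left, median log2 level (y axis) by array of the 6 genes of the large families (filled circles) and the 3 small heat shock proteins (open squares), each gene centred on its own mean. Right, log2 difference (y axis, dotted lines at 1.5-fold) of the brightest transcript of each of 33 further genes by group and of the 9 members, which range from -0.56 to 0.65.

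The wider set of folding genes comprised 33 genes that a RefSeq table names as heat shock proteins, heat shock factors, chaperonins or folding proteins of the endoplasmic reticulum. Of these, 0 were called higher and 0 lower, with adjusted p from 0.341 to 0.996. Without adjustment 4 had p no higher than 0.05, 12.1%, of which 3 were higher and 1 was lower, against 9.73% of all genes. The median log2 difference of the list was 0.02, against 0.01 over all genes. No overlap between the groups was seen for 5 of them, 15.2%, against 17.3% of all genes.

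The heat shock factors, which regulate heat shock genes, held the gene with the lowest p of the list. HSF2 (GRMZM2G088242) was at 10.40, 10.92 and 10.55 under the label Fe-deficient and at 9.80, 9.39 and 9.84 under the label Fe-sufficient. All Fe-deficient values were higher, and the fold change was 1.93 with a log2 interval from 0.47 to 1.42, not called over all transcripts (adjusted p = 0.341). Hsf26 (GRMZM2G003489) had a fold change of 1.64 (adjusted p = 0.463), with one Fe-deficient array, at 10.58, below the highest Fe-sufficient one, at 10.62, and its log2 difference of 0.71 was 0.37 with array weights. Hsf17 (GRMZM2G125969) was on the other side, at a fold change of 0.761 (adjusted p = 0.51), and its log2 difference of -0.39 was -0.22 without Fe-deficient 2, -0.17 with array weights and -0.13 with bright probes alone. Over the 10 heat shock factors, 4 had a difference above 0 and 6 below 0.

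Among the 5 other heat shock protein genes, the one with the lowest p was hscf1 (GRMZM2G139082), at 10.05, 9.46 and 9.61 against 10.36, 10.25 and 10.14, without overlap and not called (adjusted p = 0.46). Its log2 difference of -0.54 was -0.32 with array weights. The only further chaperonin, CPN60II (GRMZM2G416120), had a log2 difference of 0.23 (adjusted p = 0.691).

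The 17 genes of folding in the endoplasmic reticulum had log2 differences between -0.50 and 0.47. The protein disulfide isomerase genes pdi11 (GRMZM2G176443) and pdi7 (GRMZM2G159369), whose products form and shuffle disulfide bonds, differed 1.38-fold and 1.20-fold, both higher under the label Fe-deficient and not called (adjusted p = 0.434 and 0.555). With bright probes alone the log2 difference of pdi11 was 0.049 in place of 0.47, and without Fe-deficient 3 that of pdi7 was 0.17 in place of 0.26. Another, pdi12 (GRMZM2G067063), had a fold change of 0.853 (adjusted p = 0.563), which turned to a log2 difference of 0.08 with bright probes alone. bip2 (GRMZM2G415007), an HSP70 of the endoplasmic reticulum, stood at 12.16, 11.27 and 12.46 against 12.74, 12.11 and 12.54, with array Fe-deficient 2 lowest (adjusted p = 0.595). Its log2 difference of -0.50 was -0.15 without that array, -0.74 without Fe-deficient 3 and -0.22 with array weights.

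By the SD over the 6 arrays, the member whose brightest transcript varied most was hsp101, at 0.558, with hsp22 next at 0.527. By range hsp22 came first, at 1.55 against 1.54, and likewise by the SD within groups. The 2504 other genes with an informative name were ranked by the root-mean-square distance of their centred levels from those of hsp101. Nearest were GRF6 (GRMZM2G041223) at 0.14, IAA12 (GRMZM2G128421) at 0.14, GH3 (GRMZM2G378106) at 0.20, crr1 (GRMZM2G040736) at 0.20 and CKX10 (GRMZM2G348452) at 0.22 log2 units, against a median of 0.54. IAA12 had levels of 11.46, 12.84 and 11.67 under the label Fe-deficient and 11.48, 11.66 and 11.13 under the label Fe-sufficient, with Fe-deficient 2 highest, as for hsp101. The nearest gene of the chaperone list was the heat shock factor hsfb (GRMZM2G118453), at rank 29. This likeness is a description over 6 arrays of 1 slide.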

How the data were processed

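Root RNA was labelled with Cy3 and hybridised to NimbleGen arrays of maize B73 transcripts. The deposited files hold a linear intensity per probe, which the authors had normalized by quantiles: the upper quartile was 2779.72 on all 6 arrays. RMA is named by the methods and by the submitters' notes on processing, while no source used here names a step of background subtraction. In the series value table every entry equalled the array files (largest difference 0).

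Intensities were put on a log2 scale without further normalization, in place of the normexp and quantile steps for raw arrays. The probes of each transcript were summarised by median polish, and all 59756 transcripts were compared in R 4.3.3 with limma 3.58.1 (lmFit, eBayes), with Benjamini-Hochberg adjustment over all of them and no covariate. Calls required an adjusted p no higher than 0.05 together with a change of 1.5-fold or more, the limits of the study. The study states independent cultivations. The 3 arrays per group limit the precision. The members and lists were chosen with earlier results of these data known. Genes were named from a RefSeq table (assembly Zm-B73-REFERENCE-NAM-5.0), used for names only, and each of the 9 members matched 1 gene. From the list, 7 array genes whose symbol fits its pattern were left out. Of these, Hsf01 (GRMZM2G165998) bears the name of a heat shock factor, while the study annotates it as an acireductone dioxygenase. The study counts it among its modulated genes of the methionine cycle, and its difference is not given here. The symbols of the others name another function. Named in the text were all members, up to 4 list genes by p in each direction, the 5 genes nearest to the most variable member, and TOM1; hsfb, CPN60II and GRMZM2G458208 were added with their values known. The probe summary, the fit and the limits for a call were tested on simulated data, with 50 transcripts changed at each size. The simulation was built from the observed levels and spreads. Probe noise was added on top of a spread that already held it, so the recovered shares may be too low. The other steps were not tested on simulated data. The limits for a call recovered 0% of 1.5-fold, 0% of 2-fold, 82% of 4-fold and 94% of 8-fold changes. Alternatives concerned background correction, scaling, probe summary, filters, array weights, the replicate block, thresholds and single arrays left out. Python 3.11.15 and matplotlib 3.10.9 drew the figures.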

Additional observations from a re-analysis of the deposited data

How the results depend on the processing

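Over 20 alternatives, 0 of the 9 members and, except with an unadjusted p, 0 of their 13 transcripts were called. HSP90-1, HSP90-2, Hsp70, hsp70-5, hsp101 and hsp18c kept their direction wherever an alternative could change it. Thresholds, unadjusted p, the filter on dim transcripts and the replicate block left these differences unchanged, so direction was fixed there. The same holds for the series value table and for genes in place of transcripts. With an unadjusted p 1 of the 13 member transcripts, the dimmer one of HSP90-1 (log2 difference -1.03), was called. So were 2 of the 33 genes of the wider list, HSF2 and Hsf26, against 3190 of all 59756 transcripts. The use of bright probes alone was chosen after seeing the data. The groups did not overlap for 3 member transcripts, and for 2 to 5 when 1 array was left out. Groups with fewer arrays lie apart more often by chance. The share of all transcripts without overlap was not counted with 1 array left out. The counts from these settings can therefore not be set against those with all arrays.

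The count over all transcripts was 51, and it became 28 after RMA-type background correction, 165 with array weights, 3190 with an unadjusted p, 30 with genes in place of transcripts and from 1 to 1050 with 1 array left out, the lowest without Fe-deficient 1 and the highest without Fe-sufficient 1. The cause of these changes was not tested, apart from the looser threshold and the smaller set of genes. A fit blocked on the replicate number called 0 transcripts, and this replicate block changed no call of a member. The numbers did not pair the arrays: deviations of same-numbered arrays correlated at -0.12, -0.01 and 0.07.

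The median of the members was -0.27 after RMA-type background correction, and that of the small heat shock proteins was -0.27 with that correction, -0.066 with the mean of probes, -0.014 with bright probes alone and from -0.19 to -0.057 with 1 array left out. The sign turned for hsp22 and HSP60-1 and, with bright probes alone, for hsp18f and pdi12. The hsp22 transcripts T02 and T03 were at 0.038 and 0.0054 with array weights, and with 1 array left out T02 ran from -0.38 to 0.39, T03 from -0.31 to 0.22 and T01 from -0.27 to 0.57. HSP60-1 ran from -0.032 to 0.29 in T01 and from -0.14 to 0.25 in T02 with 1 array left out, and T02 was at -0.0095 with bright probes alone. With bright probes alone, hsp18f was at 0.40 in place of -0.15 and pdi12 at 0.085 in place of -0.23. No slide block could be fitted, since all arrays were on 1 slide.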
